A study of Mus musculus with 2 samples.

Results

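The 10 genes described here encode the constant regions of the mouse antibody heavy chains (Igha, Ighm, Ighd, Ighg1, Ighg2b and Ighg2c), the constant regions of the light chains (Igkc, Iglc1 and Iglc2) and the J chain (Jchain). They were taken by symbol from the gene names of both count matrices, where each symbol matched 1 row, so they are 10 of 32286 rows. They were chosen with results of these data known, among them a high Igha level in the chase library, and their levels and differences are therefore a description with no test. The series holds 2 single-cell libraries, 1 called chase and 1 called pulse, and was made to look for cells of the marrow that share traits of fat and bone lineages. All mice were males carrying Adipoq-CreERT2, a tamoxifen-inducible Cre recombinase under the control of the adiponectin gene, and Ai9, a reporter that makes tdTomato once Cre has acted. They received tamoxifen by gavage on 3 days in a row when 8 weeks old. Chase mice were harvested 4 weeks later and pulse mice 24 h later, so the chase mice were also older. Cells released from the inner bone surface of femurs and tibias were sorted for bright tdTomato, which was 0.29% of all cells in the chase sample and 0.01% in the pulse sample. The study used 4 mice in all, and how many went into each library is not stated. Each group is 1 library, so nothing below has a replicate check and no test was possible. Every interval is an exact 95% interval that covers counting error only.

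An antibody is built of heavy and light chains. A B cell first makes heavy chain of the mu class from Ighm, adds the delta class from Ighd by splicing when it matures, and may later switch to a gamma or alpha class by replacing the constant region. Each B cell normally uses a single light chain, and in the mouse that is kappa (Igkc) far more often than lambda (the Iglc genes). Plasma cells, which settle in bone marrow, turn much of their RNA over to antibody transcripts and add the J chain, a small protein that links secreted IgA and IgM into polymers. In droplet data, RNA set free from broken cells also gives counts in droplets of cells that do not express the gene.

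The heavy chain genes lie in a row on chromosome 12, on the minus strand of GRCm38 (mm10). They are Ighm (ENSMUSG00000076617, chr12:113418558-113422730), Ighd (ENSMUSG00000104213, chr12:113406604-113416324), Ighg1 (ENSMUSG00000076614, chr12:113325240-113330523), Ighg2b (ENSMUSG00000076613, chr12:113302965-113307933), Ighg2c (ENSMUSG00000076612, chr12:113285325-113288932) and Igha (ENSMUSG00000095079, chr12:113254830-113260236). Igkc (ENSMUSG00000076609, chr6:70726435-70726966) is on the plus strand. Iglc1 (ENSMUSG00000105906, chr16:19061618-19062071), Iglc2 (ENSMUSG00000076937, chr16:19198396-19200351) and Jchain (ENSMUSG00000067149, chr5:88519809-88527891) are on the minus strand. All 10 identifiers of the files matched the GENCODE vM21 annotation. The heavy chains found in plasma-like cells differ at the end of their coding region, where IgA and IgM carry the tailpiece that binds the J chain and IgG does not. The last 30 coding bases before the stop codon are shown from the GENCODE vM21 transcripts, 5′ to 3′ and in the sense of the transcript, with the final 6 bases in capitals. Igha and Ighm have nearly the same ending, and the 3 IgG genes share another.
Igha (chr12:113258771-113258800): atcatgtcagagggagatggcatcTGCTAC
Ighm (chr12:113420870-113420899): atcatgtctgacacaggcggcaccTGCTAT
Ighg2b (chr12:113306392-113306421): aagaagaccatctcccggtctccgGGTAAA
Ighg2c (chr12:113287392-113287421): actaagaccatctcccggtctctgGGTAAA
Ighg1 (chr12:113328979-113329008): gagaagagcctctcccactctcctGGTAAA

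The lambda constant genes are shown because the results below turn on telling them apart. The same 30-base coding window, 72 bases before the end of the coding region, is given for Iglc1, Iglc2 and the related row Iglc3, with capitals where Iglc1 and Iglc2 differ. It was picked as the window with the most differences between Iglc1 and Iglc2 toward the coding end. Iglc1 and Iglc2 differ at 18 of these 30 bases, and Iglc3 has 0 differences from Iglc2.
Iglc1 (chr16:19061827-19061856): ACCCtgacaGcAAGAGCAtggGAaAGGcaT
Iglc2 (chr16:19198611-19198640): CATTtgacaTcGGACCAGtggAGaTCTcaC
Iglc3 (chr16:19065440-19065469): catttgacatcggaccagtggagatctcac
Over the whole coding region Iglc1 and Iglc2 were 73.8% identical and Iglc2 and Iglc3 96.2% identical, so the split of counts between Iglc2 and Iglc3 is uncertain. Ighg2b and Ighg2c were 85.9% identical in their coding and 91.6% in their untranslated bases, so a part of their counts could also be split. The labels do not state how reads shared by such copies were counted.

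The chase matrix held 10046 barcodes and 82939659 UMIs (unique molecular identifiers, each counting 1 captured transcript), and the pulse matrix had 10608 barcodes and 89009901 UMIs. After filters and doublet removal 8335 chase and 9212 pulse cells remained, whose depths had medians of 7489 and 7772.5 UMIs. Each cell was placed in a class by the share of fixed marker genes it contained, with no immunoglobulin gene and no Jchain among the markers. Plasma-like cells needed 6 of 10 plasma markers and B-like cells 4 of 11 B markers. The cells were labelled as tdTomato-positive mesenchymal cells. CAR-like cells, the Cxcl12-abundant reticular stroma that carries Adipoq, were the most frequent class, with 3787 chase cells (45.4% of kept cells) and 4013 pulse cells (43.6%). Blood-like cells were present in both libraries although the sort was for a stromal reporter, and 1252 chase cells (15.0%) and 1163 pulse cells (12.6%) passed no gate. The libraries shared 52 barcodes, of which 0 were in plasma-like cells and 2 were in B-like cells of the pulse library.

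Plasma-like cells were few. They numbered 51 in the chase library, or 0.612% of kept cells (0.456 to 0.804), and 14 in the pulse library, or 0.152% (0.0831 to 0.255). B-like cells numbered 116 in the chase library, or 1.39% (1.15 to 1.67), and 456 in the pulse library, or 4.95% (4.52 to 5.41). The chase library thus held more plasma-like and fewer B-like cells, in a sorted population whose gate passed different shares of the samples. Chase plasma-like cells were deep, with a median of 20616 UMIs against 13708 in the pulse library, while B-like cells had medians of 3367.5 and 2116.5 UMIs. The number of plasma markers had no clear gap at the gate, since 6 chase and 4 pulse cells stood at 6 markers and 15 and 13 cells at 5.

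Plasma-like cells carried most of the switched heavy chain, kappa and J chain transcripts, and B-like cells carried Ighm, Ighd and, in the pulse library, lambda. Levels are given as CPM, the UMIs of a gene per 1000000 UMIs of a class, and since the 3′ kit registers a transcript once whatever its length they were not divided by length. Igha stood at 128717 CPM in plasma-like and 63.4 CPM in B-like cells of the chase library, and at 81956 and 9.75 CPM in the pulse library. Jchain stood at 56402 and 6.47 CPM in the chase library and at 41415 and 1.50 CPM in the pulse library. Igkc reached 375724 CPM in chase plasma-like cells and 344043 CPM in pulse plasma-like cells, against 2232 and 4615 CPM in B-like cells of the same libraries. Of the 10 members it had the most UMIs in plasma-like cells of both libraries. Ighd, the delta chain of mature naive B cells, had 0 UMIs in plasma-like cells of both libraries, which allows up to 2.96 and 14.8 CPM (3 counts), against 158 and 406 CPM in B-like cells.

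Set against B-like cells, 7 of the 9 members with at least 50 UMIs were at least 2-fold higher in chase plasma-like cells and 2, Ighm and Ighd, at least 2-fold lower. Of all 3283 genes so compared 5.76% were higher and 73.1% lower. Of 9 members compared in the pulse library 5 were higher and 1, Ighd, was lower, against 2.9% and 67.6% of 4064 genes. By CPM most genes were lower in plasma-like cells. The median log2 ratio of all genes was −1.67 in the chase and −1.53 in the pulse library. Members took a median of 66.8% of the UMIs of a chase and 52.7% of those of a pulse plasma-like cell. Class totals include these UMIs, which lowers the CPM of every other gene in plasma-like cells. The place of Ighm differed between the libraries, at 352 CPM in chase plasma-like against 3075 CPM in B-like cells and at 11054 against 6133 CPM in the pulse library.

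**Figure D1:**
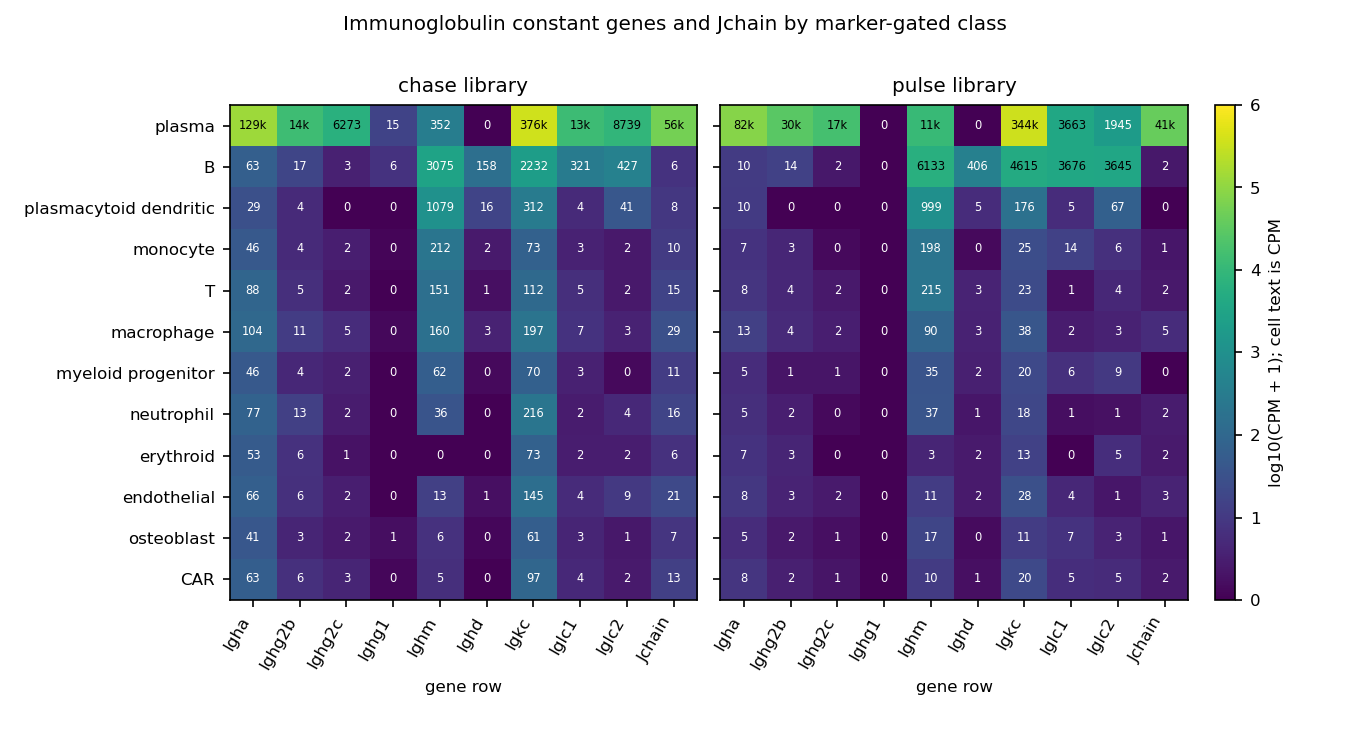
Level of each of the 10 genes (columns) in marker-gated classes (rows) of the chase library (left) and the pulse library (right). Colour is log10 of CPM plus 1 and the text in each cell is CPM, with k for 1000 CPM. The plasma row is brightest for Igha, Igkc and Jchain in both libraries, and the Ighm column stays bright in B, plasmacytoid dendritic, monocyte, T and macrophage rows.

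Individual plasma-like cells carried 1 heavy chain each. Igha led in 44 of 51 chase cells (86.3%, 73.7 to 94.3) and in 9 of 14 pulse cells (64.3%, 35.1 to 87.2). Ighg2b, a gamma chain of IgG, led in 5 chase and 2 pulse cells, and Ighg2c, another gamma chain, in 2 and 2. Ighm led in 0 chase cells and 1 pulse cell. Ighg1 and Ighd led in 0 cells of either library. The leading heavy chain made up a median of 99.96% of a cell's heavy chain UMIs in the chase library (91.7 to 100) and of 99.99% in the pulse library (94.9 to 100). The 2 shares of Igha-leading cells have overlapping intervals, and 14 pulse cells cannot place the share closely.

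The leading heavy chain was found at 501 to 9073 UMIs per cell in the chase library (median 2942), and at 672 to 4769 UMIs in the pulse library (median 1347.5). The second heavy chain had a median of 1 UMI in the chase library, with a highest value of 340, and of 0.5 in the pulse library, with a highest value of 62. That chase cell with 340 UMIs of Ighm beside 3788 of Igha held nearly all of the 357 Ighm UMIs of the 51 cells. The pulse cell led by Ighm had 2175 Ighm, 3073 Igkc and 342 Jchain UMIs and 0 UMIs of any other heavy chain, and it supplied 2175 of the 2239 Ighm UMIs of its class. The Ighm difference between the plasma-like classes of the libraries, 0.0319 times (0.0284 to 0.0356), thus rests on 1 cell, and without it was 1.06 (0.811 to 1.41).

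The IgG chains were likewise carried by a few cells. Ighg2b-leading cells had between 2002 and 3291 Ighg2b UMIs in the chase library and 1190 and 4769 in the pulse library. Ighg2c-leading cells had 2830 and 3443 Ighg2c UMIs in the chase library and 1314 and 2061 in the pulse library. The class level of Ighg2b was 13763 CPM in chase and 29567 CPM in pulse plasma-like cells (0.465 times, 0.452 to 0.480), and that of Ighg2c 6273 and 16726 CPM (0.375 times, 0.360 to 0.391). One pulse cell supplied 4769 of the 5989 Ighg2b UMIs of its class, and without it the ratio turned to 1.95 (1.84 to 2.07). Without the pulse cell highest in Ighg2c that ratio was 0.847 (0.799 to 0.900), and without the chase cell highest in it 0.176 (0.167 to 0.185). Ighg1 had 15 UMIs in chase plasma-like cells, all in 1 cell, and 0 in pulse plasma-like cells, with 48 and 10 UMIs in the whole libraries. The related rows Ighg3 and Ighe had 0 and 19 UMIs in chase plasma-like cells and 0 and 0 in pulse plasma-like cells.

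Igha was also counted in chase cells led by another chain. All 7 IgG-leading cells of the chase library had Igha UMIs, between 1 and 87 with a median of 5. The 5 pulse cells led by IgG or Ighm had 0 Igha UMIs.

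The J chain was present in every plasma-like cell. It had 167 to 3825 UMIs per chase cell, with a median of 1049, and 195 to 1359 per pulse cell, with a median of 504. As a share of a cell's UMIs it was 1.19% to 10.3% in the 44 chase cells led by Igha, with a median of 5.89%, and 1.00% to 6.65% in the 7 led by IgG, with a median of 2.14%. In the pulse library it was 1.44% to 9.12% in the 9 Igha-leading cells, with a median of 7.27%, and 1.47% to 4.10% in the 4 IgG-leading cells, with a median of 2.30%. Jchain was thus also found in cells whose heavy chain lacks the J chain tailpiece shown above. Medians were higher in Igha-leading cells of both libraries, while the ranges overlapped. The Ighm-leading pulse cell lay between, at 3.49%.

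Light chains were nearly all kappa. Igkc led in 47 of 51 chase cells (92.2%, 81.1 to 97.8) and in 14 of 14 pulse cells. Iglc1 led in 3 chase cells, with 2498, 3504 and 6394 Iglc1 UMIs, at most 33 UMIs of Iglc2 and at most 169 of Igkc. Iglc2 led in 1 chase cell with 7352 Iglc2, 10 Iglc1, 7 Iglc3 and 0 Igkc UMIs. All 4 lambda cells were led by Igha. They kept the 2 lambda rows apart, and Iglc3 received almost no UMIs from the cell rich in Iglc2. In 1 pulse cell led by Igkc the second light chain was high, with 619 Iglc1 UMIs beside 1362 of Igkc. Igkc UMIs ran between 766 and 19023 per Igkc-leading chase cell, with a median of 8375, and between 1362 and 15872 per pulse cell, with a median of 3481.

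Together the members took 11.1% to 78.0% of a plasma-like cell's UMIs in the chase library (median 66.8%), and 21.1% to 73.0% in the pulse library (median 52.7%). The ranges of the 2 libraries overlapped.

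**Figure D2:**
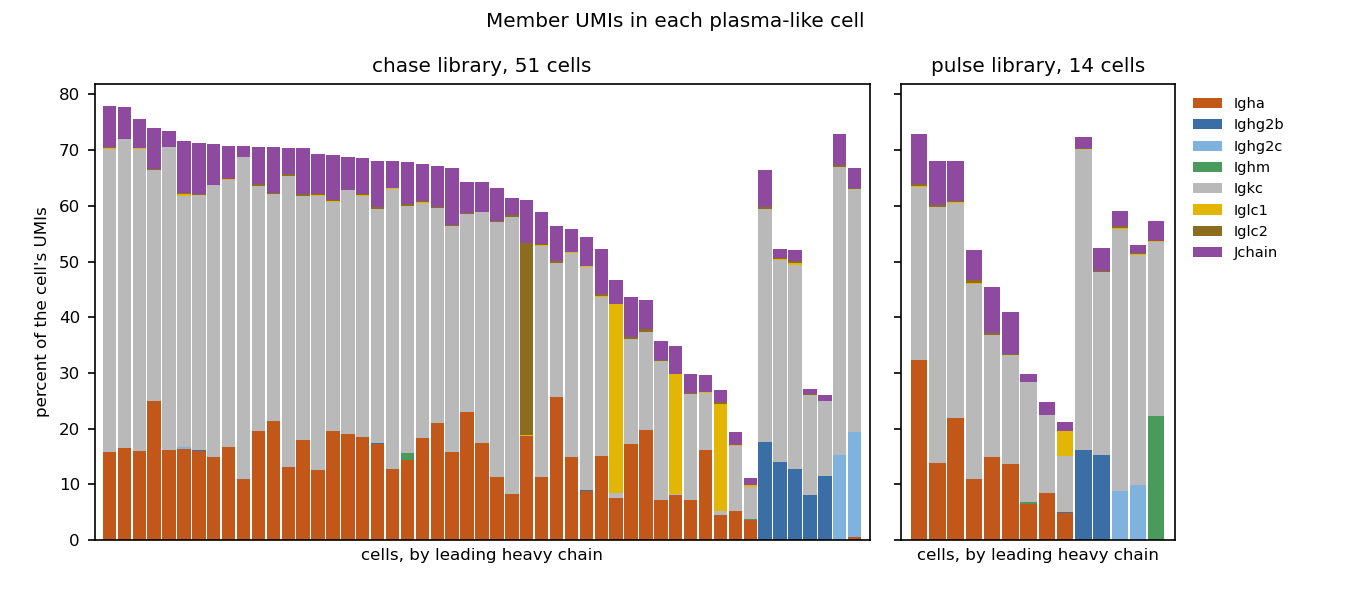
Percent of UMIs taken by each gene (stacked colours, y axis) in each of the 51 plasma-like chase cells (left) and 14 plasma-like pulse cells (right), with cells grouped by leading heavy chain along the x axis. Nearly every bar holds 1 heavy chain colour, 1 light chain colour and Jchain, and the 4 lambda cells of the chase library are the bars without a large grey block.

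The machinery for making and exporting antibody went with these cells. Of the antibody secretion list, which holds chaperones, disulfide isomerases and translocation factors of the endoplasmic reticulum, 22 of 22 were at least 2-fold higher in plasma-like than in B-like cells of the chase library, with a median log2 ratio of 2.54, and 20 of 22 in the pulse library (median 2.35). The medians of all genes were −1.67 and −1.53. Hsp90b1, a chaperone of the endoplasmic reticulum, stood at 2562 CPM in plasma-like and 429 CPM in B-like cells of the chase library. Ssr4, a subunit of the translocon-associated complex, stood at 1620 and 197 CPM. Mzb1, a B lineage chaperone, stood at 2036 and 440 CPM. Mzb1, Derl3 and Fkbp11 of this list were also plasma gate markers. B cell receptor partners, which join surface antibody to the signalling machinery, were at least 2-fold lower for 9 of 10 measured genes in the chase library and 10 of 11 in the pulse library, where 73.1% and 67.6% of all genes were. Several of them, Cd79a among them, were also B gate markers. The signalling partner Cd79a stood at 591 CPM in plasma-like and 1539 CPM in B-like chase cells, and at 370 and 2914 CPM in the pulse library. These values are shares of class totals that include the antibody transcripts. The same comparison on totals without those transcripts was not made.

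The plasma cell identity list, most of which the gate used, had 4 of 8 members higher and 1 lower in the chase library and 2 of 6 higher in the pulse library. Between the plasma-like cells of the 2 libraries, 0 of 22 secretion genes and 0 of 8 identity genes differed by 2-fold, with median log2 ratios of −0.11 and −0.08 against −0.27 over all genes. Xbp1, the transcription factor that builds the secretory apparatus, stood at 1047 CPM in chase and 1116 CPM in pulse plasma-like cells. Among members, 2 of 8 were at least 2-fold higher in the chase library, Iglc1 and Iglc2, where 4.34% of 1313 genes were, and 3 were lower, Ighm, Ighg2b and Ighg2c, where 5.86% were. Single cells moved these ratios. Without its highest chase cell Iglc2 turned to 0.780 times (0.698 to 0.874) the pulse level, and Iglc1 was 1.87 times without its highest chase cell and 20.0 times without its highest pulse cell. As given above, Ighm and Ighg2b each turned without 1 pulse cell. Igha was 1.57 times (1.55 to 1.60), Jchain 1.36 times (1.33 to 1.39) and Igkc 1.09 times (1.08 to 1.10) the pulse level, all short of 2-fold. Without 1 pulse cell Igha was 2.02 times as high.

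Some cells with very high light chain counts failed the plasma gate. The chase library had 7 ungated cells with at least 1000 UMIs of a light chain row, with 53255 Igkc and 13069 Igha UMIs in all and 2 to 10 plasma markers. The pulse library had 2, with 4364 and 1871 UMIs and 1 to 4 markers. In 6 of the 7 chase cells plasma was the first or second class by markers, with CAR, myeloid progenitor, erythroid or osteoblast beside it. Whether these cells are doublets was not tested. Gated plasma-like cells held 85.97% of all Igha UMIs of the chase library (85.8 to 86.1) and 85.4% of the pulse library (84.9 to 85.9), with 10.2% and 11.4% in ungated cells, 2.62% and 2.62% in all other gated classes and 0.0323% and 0.0669% in B-like cells. For Igkc the plasma-like share was 83.8% in the chase and 81.7% in the pulse library, and the B-like share 0.380% and 7.21%. Jchain was 88.3% and 89.0% in plasma-like cells. Fewer than 1 in 100 kept cells thus carried more than 4 in 5 transcripts of Igha, Igkc and Jchain in each library.

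Lambda and mu were distributed differently. Iglc1 UMIs were 94.7% in plasma-like cells and 1.78% in B-like cells of the chase library, but 11.2% and 73.9% in the pulse library. Iglc2 followed, with 91.8% and 3.42% in the chase and 6.12% and 75.4% in the pulse library. The chase shares rest on the few lambda-leading plasma-like cells. Of the plasma-like chase UMIs, 1 cell held 7352 of 8857 for Iglc2 and 1 cell held 6394 of 13194 for Iglc1. Of all Ighm UMIs, plasma-like cells held 3.94% in the chase and 14.2% in the pulse library, B-like cells 26.3% and 51.9%, and all other gated classes 39.3% and 16.1%. Other gated classes thus held far more of Ighm than of Igha, where they had 2.62% in each library.

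In B-like cells Ighm was the leading heavy chain in 113 of 116 chase cells (97.4%, 92.6 to 99.5) and in 444 of 456 pulse cells (97.4%, 95.4 to 98.6). A switched heavy chain exceeded Ighm in 1 chase and 4 pulse cells. Mean Ighm was 20.5 UMIs per chase cell and 17.9 per pulse cell, with 3075 and 6133 CPM, so the chase value was lower relative to all UMIs (0.501 times, 0.479 to 0.525) but 1.14 times as high per cell. Igkc gave the same picture, at 0.484 times by CPM and 1.10 times per cell, with 14.9 UMIs per chase cell and 13.5 per pulse cell. The direction of these 2 ratios therefore depends on the scale, and chase B-like cells were the deeper ones. Ighd, at 158 CPM in the chase and 406 CPM in the pulse library, had a ratio of 0.389 (0.317 to 0.474). Its counts were 122 UMIs in the 116 chase and 541 UMIs in the 456 pulse cells, so per cell the libraries lay closer together.

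Subtypes of B-like cells moved with these values. Cells with more precursor than mature markers numbered 28 of 116 in the chase library and 28 of 456 in the pulse library, and their median depths were 12114.5 and 2690 UMIs. Mature B-like cells numbered 71 and 411, with depths of 3065 and 2109 UMIs. In mature B-like cells Ighm stood at 4377 CPM in the chase and 6643 CPM in the pulse library, and Igkc at 5088 and 5320 CPM. Ighd stood at 416 and 477 CPM there. Of the recombination and surrogate light chain list, 3 of 5 measured members were at least 2-fold higher in chase B-like cells. Dntt, which adds bases at the junctions of antibody genes, stood at 119 CPM in the chase and 8.25 CPM in the pulse library. Igll1 and Vpreb1, the surrogate light chain of precursors, stood at 375 and 471 CPM in the chase and at 84.8 and 103 CPM in the pulse library. These 3 were also the markers that defined precursors. In plasma-like against B-like cells, 4 of 4 measured genes of this list were lower in each library, where 73.1% of all genes were in the chase and 67.6% in the pulse library. Fcmr, the receptor for secreted IgM, stood at 204 CPM in the chase and 780 CPM in the pulse library. The B cell receptor partners were at least 2-fold lower for 2 of 12 genes, with a median log2 ratio of −0.75 against −0.10 over all genes.

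Counted over all cells, and of the members with at least 50 UMIs, the lambda rows set the B-like cells of the libraries furthest apart. Iglc1 stood at 321 CPM in the chase and 3676 CPM in the pulse library, a ratio of 0.0872 (0.0765 to 0.0991), and Iglc2 at 427 and 3645 CPM, a ratio of 0.117 (0.104 to 0.131). Per cell the Iglc1 ratio was 0.199. Among members, 1 of 6 was at least 2-fold higher in chase B-like cells, Igha, where 4.99% of 5211 genes were (6.50 times, and 10.5 times without 1 of the pulse cells), and 4 were lower, Ighd, Igkc, Iglc1 and Iglc2, where 7.75% were. These calls are by CPM, and those of Ighd and Igkc depend on that scale, as given above.

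A lambda row sum (Iglc1, Iglc2 and Iglc3) above Igkc was found in 22 of 116 chase B-like cells (19.0%, 12.3 to 27.3) and in 253 of 456 pulse B-like cells (55.5%, 50.8 to 60.1). Igkc led in 89 chase and 193 pulse cells, and the rest were tied. A lead could rest on 1 UMI, as in a chase precursor cell with 1 Igkc UMI among 29568 UMIs. Igkc-leading cells included 23 chase and 15 pulse precursor cells, and lambda-leading cells 1 and 8. Within mature B-like cells alone the lambda share was 20 of 71 (28.2%, 18.1 to 40.1) in the chase library and 236 of 411 (57.4%, 52.5 to 62.3) in the pulse library. The difference was thus present without the precursors. At least 5 lambda UMIs with 0 Igkc UMIs were seen in 11 chase cells (9.48%) and 159 pulse cells (34.9%). The reverse, at least 5 Igkc UMIs with 0 lambda UMIs, was seen in 31 chase cells (26.7%) and 21 pulse cells (4.61%). At least 5 UMIs of both were seen in 18 chase cells (15.5%) and 176 pulse cells (38.6%), so many pulse cells were not clearly of 1 light chain. Lambda-leading cells had 5 to 51 lambda UMIs in the chase library (median 17), and 1 to 210 in the pulse library (median 34). They were somewhat shallower than Igkc-leading cells, with median depths of 2447 against 3527 UMIs in the chase and 1953 against 2648 UMIs in the pulse library.

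Variable segments sided with the leading light chain. The 3 Iglv rows of the files had a UMI in 4 of 22 lambda-leading against 2 of 89 Igkc-leading chase cells (18.2% and 2.25%), and in 63 of 253 against 12 of 193 pulse cells (24.9% and 6.22%). The 160 Igkv rows had a UMI in 1 of 22 lambda-leading against 25 of 89 Igkc-leading chase cells (4.55% and 28.1%), and in 20 of 253 against 41 of 193 pulse cells (7.91% and 21.2%). Most B markers were at a higher CPM in lambda-leading cells. Cd79a stood at 3062 CPM in lambda-leading against 1409 CPM in Igkc-leading cells of the chase library, and at 3499 against 2419 CPM in the pulse library. Vpreb3, a partner of the precursor receptor, was lower in the chase library, at 831 CPM in lambda-leading against 1421 CPM in Igkc-leading cells (0.585 times, 0.432 to 0.775), and stood at 1135 against 1099 CPM in the pulse library. The surrogate light chain Igll1 had 0 UMIs in lambda-leading cells of both libraries. Igll1 was a precursor marker. These contrasts were over all B-like cells, and more of the precursor cells were led by Igkc than by lambda.

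The lambda rows were mixed inside single B-like cells, unlike in plasma-like cells. Of lambda-leading B-like cells with at least 10 UMIs of Iglc1 and Iglc2 together, 10 of 18 in the chase library (55.6%) and 184 of 236 in the pulse library (78.0%) had between 10% and 90% of them in Iglc1. Of the 4 lambda-leading plasma-like cells 0 did, 3 having at least 90% and 1 at most 10%. Both rows had at least 5 UMIs in 6 of 22 chase and 145 of 253 pulse lambda-leading cells. Iglc1 and Iglc2 were 73.8% identical over the coding region. The 18 differing bases shown above lie in a window picked for its differences. The source of the mix inside single B-like cells was not tested.

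**Figure D3:**
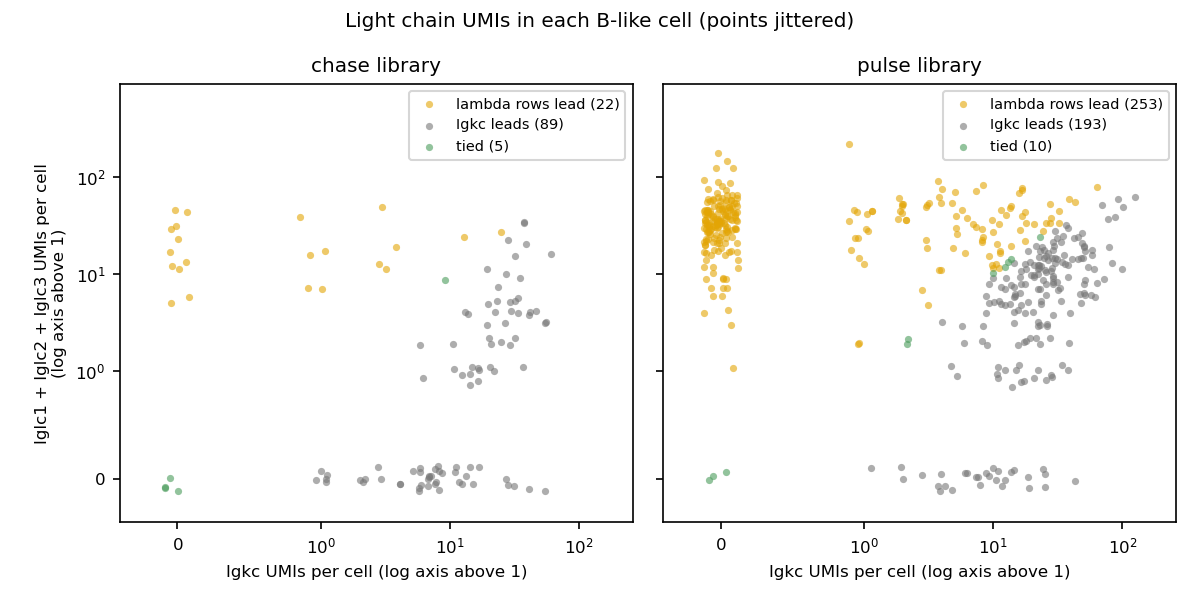
UMIs of Igkc (x axis) and of Iglc1, Iglc2 and Iglc3 together (y axis) in each B-like cell of the chase library (left) and the pulse library (right), on axes that are logarithmic above 1, with points jittered. Lambda rows lead in 22 chase and 253 pulse cells, and the dense column at 0 Igkc UMIs is seen in the pulse library.

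Outside these classes every type had low levels of the plasma transcripts. Over the 9 other classes with at least 50 cells in each library, Igha ran between 41.1 CPM in osteoblast-like and 104 CPM in macrophage-like chase cells, and between 4.64 and 13.03 CPM in the same 2 classes of the pulse library. The span was 2.53-fold in the chase and 2.81-fold in the pulse library. Igkc ran between 60.9 and 216 CPM in the chase and between 10.7 and 38.5 CPM in the pulse library. Jchain ran between 6.08 and 28.7 CPM in the chase and between 0 and 4.74 CPM in the pulse library. In CAR-like cells, which should lack all of these, Igha stood at 62.7 CPM (59.7 to 65.7) in the chase and 7.52 CPM (6.63 to 8.49) in the pulse library. The B-like Igha levels of 63.4 CPM in the chase and 9.75 CPM in the pulse library lay inside these ranges, as did B-like Jchain.

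The share of cells with a UMI was compared after thinning each cell to 2000 UMIs. Igha was then seen in 11.9% of chase CAR-like cells (10.9 to 13.01) and 1.39% of pulse CAR-like cells (1.05 to 1.81), with 201 and 137 shallower cells left out. Unthinned shares were 33.7% and 6.28%, at median depths of 6704 and 8168 UMIs. Over the 9 classes the thinned Igha share ran between 6.72% and 20.7% in the chase and between 0.731% and 3.19% in the pulse library. Thinned plasma-like cells had Igha in 92.2% of chase and 64.3% of pulse cells. The highest CAR-like cell had 14 Igha UMIs in the chase and 3 in the pulse library, far below any Igha-leading plasma-like cell.

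Per cell, Igkc in CAR-like cells grew with depth more slowly than total UMIs did. CAR-like cells were put in 4 equal bins of depth. In the shallowest and the deepest bin of the chase library, with median depths of 3261 and 10443 UMIs, Igkc was 0.448 and 1.04 UMIs per cell, or 142 and 89.0 CPM. In the pulse library the same bins, with median depths of 4034 and 12617 UMIs, had 0.117 and 0.199 UMIs per cell, or 30.3 and 14.04 CPM. The CPM of Adipoq, which CAR-like cells express, differed less between these bins, at 2112 and 1823 CPM in the chase and 2010 and 1579 CPM in the pulse library.

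The mix of switched heavy chains in the 9 other classes was close to the mix in plasma-like cells, library by library. Igha made up 86.5% of Igha, Ighg1, Ighg2b and Ighg2c UMIs in chase plasma-like cells and 86.9% (85.3 to 88.4) in chase CAR-like cells. In the pulse library it made up 63.9% in plasma-like and 67.2% (62.3 to 71.8) in CAR-like cells. Ighg2b was 9.25% and 8.19% in the chase and 23.1% and 22.0% in the pulse library, in the same order. The intervals of 8 of 9 classes in the chase and 9 of 9 in the pulse library held the plasma-like Igha share. Some pulse intervals were too wide to tell shares apart. They were 22.3 to 95.7 for 6 such UMIs in erythroid-like and 34.9 to 90.1 for 12 in myeloid progenitor-like cells. The IgG part of the low level in these classes was larger in the library whose plasma-like cells had the larger IgG part. The pulse plasma-like mix leaned on the cell highest in Ighg2b, with 4769 of the 5989 Ighg2b UMIs of its class. The match without that cell was not tested. B-like and ungated cells departed from the plasma-like mix. Igha was 71.0% (58.8 to 81.3) of 69 such UMIs in chase B-like cells and 39.4% (22.9 to 57.9) of 33 in pulse B-like cells, and 81.2% in chase and 96.8% in pulse ungated cells.

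The light chain and J chain did not keep the plasma-like ratio to Igha in CAR-like cells, nor in most other classes of the chase library. There were 2.92 Igkc UMIs per Igha UMI in chase plasma-like cells and 1.54 (1.45 to 1.64) in chase CAR-like cells, and 4.198 and 2.62 (2.27 to 3.04) in the pulse library. Over the 9 classes the ratio ran between 1.26 and 2.82 in the chase library, with the interval of 8 classes below the plasma-like value. In the pulse library it ran between 2.00 and 4.25. There the intervals of 3 classes lay below the plasma-like value and those of 6 held it. Jchain per Igha was 0.438 in plasma-like and 0.200 (0.177 to 0.225) in CAR-like chase cells, and 0.505 and 0.235 (0.175 to 0.311) in the pulse library. All 9 classes lay below the plasma-like value in the chase library and 1 of 9 in the pulse library, where counts were low. Whether some part of the low level came from sources other than the gated plasma-like cells was not tested.

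The low level of Igha was higher in the chase library in each of the 9 classes, by more than in the plasma-like cells. It was between 6.80 times (monocyte-like) and 14.1 times (neutrophil-like) its pulse level, and the interval was above 1 in 9 of 9. In CAR-like cells the ratio was 8.33 (7.31 to 9.53) for Igha, 7.09 (5.39 to 9.48) for Jchain, 4.90 (4.50 to 5.34) for Igkc, 2.84 (1.93 to 4.24) for Ighg2c and 2.40 (1.83 to 3.16) for Ighg2b. Over the whole libraries, all barcodes included, Igha was 8.38 times, Jchain 7.38 times, Igkc 5.72 times, Ighg2b 2.84 times and Ighg2c 2.30 times the pulse level. The CAR-like ratios lay nearer to these than to the plasma-like ratios. Igkc was 2.92 to 12.1 times its pulse level over the 9 classes, highest in neutrophil-like cells. These were also highest in Igkc CPM and in Igkc per Igha in the chase library. Of their 671 chase Igkc UMIs, 192 were in 1 cell. Outside plasma-like and B-like cells, 7 gated chase and 0 gated pulse cells had at least 50 UMIs of a light chain row.

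Of the 8 members with at least 50 UMIs in CAR-like cells, 5 were at least 2-fold higher in the chase library, where 2.49% of 13084 genes were, and 1, Iglc2, was lower, where 1.96% were. The choice of these genes used this contrast, and nothing is read from that count. In macrophage-like cells 6 of 8 were higher (background 1.37% of 10353 genes) and 0 lower (1.13%). In osteoblast-like cells 3 of 5 were higher (2.71%) and 2 lower (1.22%). Other classes had fewer members with 50 UMIs. Among T-like cells 2 of 3 were higher (4.79%) and 0 lower (2.23%). Monocyte-like cells had 3 of 4 higher (1.06%) and 0 lower (0.895%), and neutrophil-like cells 3 of 4 higher (1.85%) and 0 lower (1.05%). Myeloid progenitor-like cells had 3 of 4 higher (1.26%) and 0 lower (0.476%), and endothelial-like cells 3 of 4 higher (1.78%) and 0 lower (0.381%). Erythroid-like cells had 2 of 2 higher (2.94%) and 0 lower (0.811%). Macrophage-like Igha stood at 104 CPM in the chase and 13.03 CPM in the pulse library, a ratio of 7.97 (6.53 to 9.80). Iglc2 went the other way in CAR-like cells, with Iglc2 at 1.76 CPM in the chase and 4.60 CPM in the pulse library (0.382, 0.270 to 0.532) and Iglc1 at 4.04 and 4.95 CPM (0.816, 0.635 to 1.04). Of the 159 Iglc2 UMIs of pulse CAR-like cells 36 were in 1 cell, and of the 171 Iglc1 UMIs 39 were. Without these cells the ratios were 0.493 (0.345 to 0.696) for Iglc2 and 1.06 (0.811 to 1.37) for Iglc1. The summed B markers moved in the same direction in CAR-like cells, at 5.31 CPM in the chase and 14.5 CPM in the pulse library, and their part in the lambda values was not tested.

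**Figure D4:**
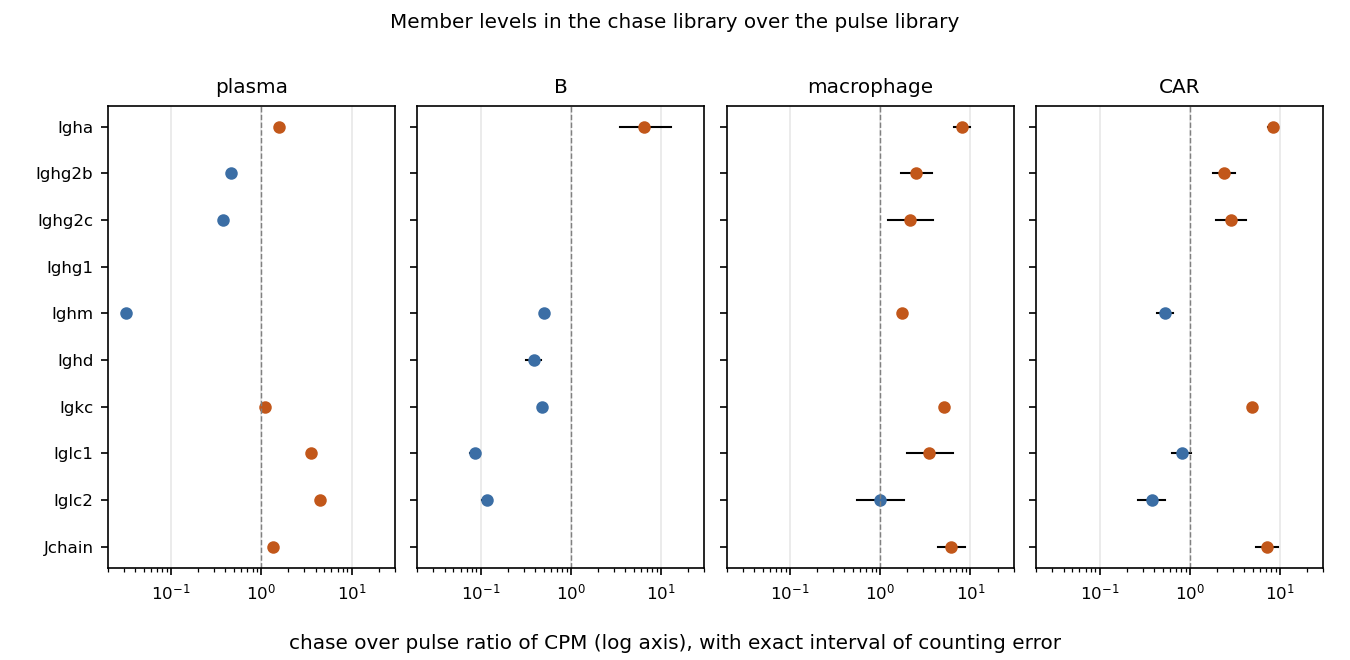
Ratio of CPM in the chase library over the pulse library (x axis, log scale) for each gene (y axis) in plasma, B, macrophage and CAR-like cells. Points are orange above 1 and blue below it, with black bars for the exact interval of counting error. No point is drawn where fewer than 50 UMIs were counted over both libraries. Igha lies at 8.33 in CAR-like and 7.97 in macrophage-like cells but at 1.57 in plasma-like cells, and Iglc1 and Iglc2 lie furthest to the left in B-like cells.

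Ighm departed from this uniform low level. Plasmacytoid dendritic-like cells, which share transcription factors with B cells, stood at 1079 CPM in the chase and 999 CPM in the pulse library. Monocyte-like cells stood at 212 and 198 CPM, T-like cells at 151 and 215 CPM, and macrophage-like cells at 160 and 90.5 CPM. CAR-like cells stood at 5.27 and 9.86 CPM, osteoblast-like cells at 5.99 and 17.3 CPM, endothelial-like cells at 12.5 and 10.7 CPM, and erythroid-like cells at 0 and 3.29 CPM. Myeloid progenitor-like cells, at 61.5 and 34.8 CPM, and neutrophil-like cells, at 36.0 and 36.7 CPM, lay between. Over the 9 classes the span was 65.4-fold in the pulse library and had no finite value in the chase library, against under 3-fold for Igha.

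Relative to CAR-like cells Ighm was 40.2 times (33.6 to 48.3) as high in monocyte-like cells of the chase and 20.1 times (17.4 to 23.1) in those of the pulse library, and 205 and 101 times as high in plasmacytoid dendritic-like cells. After thinning to 2000 UMIs it was seen in 33.3% of chase and 32.9% of pulse monocyte-like cells and in 86.5% and 91.7% of plasmacytoid dendritic-like cells. In CAR-like cells it was seen in 0.781% of chase and 1.32% of pulse cells. T-like cells had it in 15.5% of chase and 36.0% of pulse cells, and macrophage-like cells in 25.2% and 12.4%. Unlike Igha, the Ighm level of monocyte-like cells hardly differed between the libraries, while the order of T-like and macrophage-like cells was not the same in both.

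Monocyte-like, T-like and plasmacytoid dendritic-like cells differed in the B transcripts found beside Ighm. Per Igkc UMI there were 1.38 Ighm UMIs in B-like cells of the chase and 1.33 in those of the pulse library, against 2.88 and 7.87 in monocyte-like and 3.46 and 5.68 in plasmacytoid dendritic-like cells. T-like cells had 1.35 in the chase, near the B-like value, and 9.53 in the pulse library, and macrophage-like cells 0.809 and 2.35. Igkc, the divisor, itself stood at 73.4 and 25.2 CPM in monocyte-like and 112 and 22.6 CPM in T-like cells of the 2 libraries. Cd79a, at 1539 CPM in B-like cells of the chase and 2914 CPM in those of the pulse library, stood at 0 and 0 CPM in plasmacytoid dendritic-like, 2.15 and 9.64 CPM in monocyte-like and 3.77 and 1.51 CPM in T-like cells. Of the 11 B markers 6 in the chase and 7 in the pulse library were at 0 in plasmacytoid dendritic-like cells, which did carry Spib (320 and 252 CPM) and Fcrla (213 and 181 CPM), against 238 and 482 CPM of Spib and 215 and 377 CPM of Fcrla in B-like cells. Light chain was also found there, with Igkc at 312 CPM in the chase and 176 CPM in the pulse library. Cd79b was found in macrophage-like cells at 103 CPM in the chase and 116 CPM in the pulse library.

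**Figure D5:**
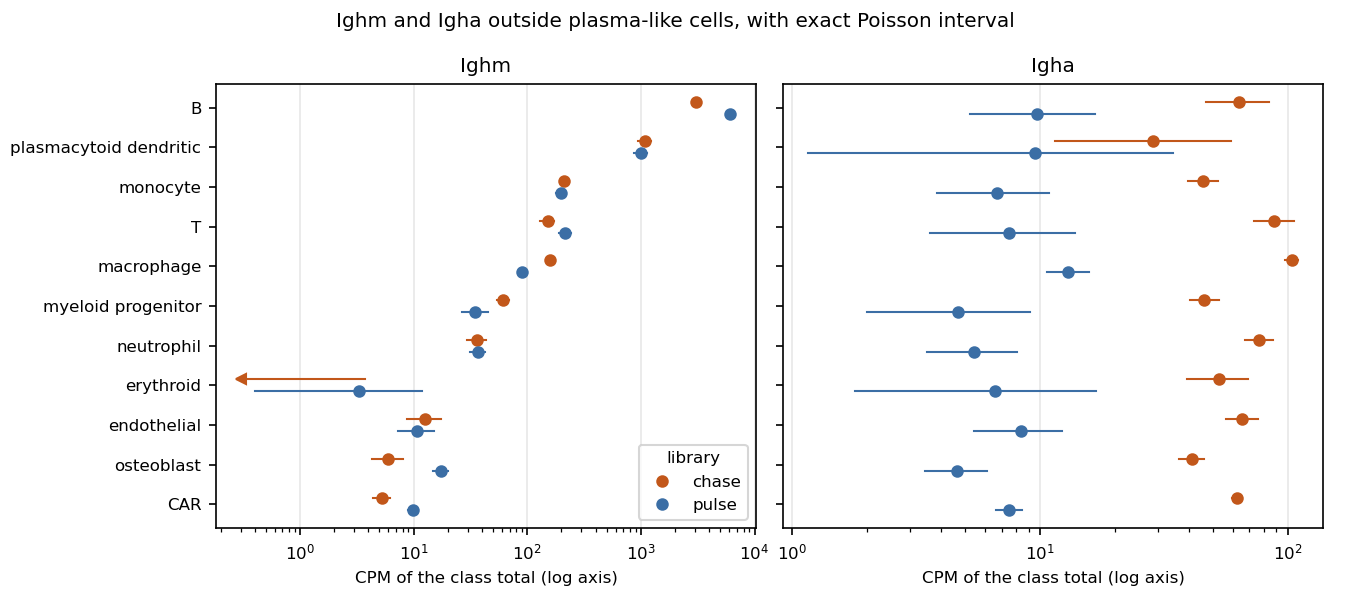
CPM of Ighm (left) and Igha (right) in each class outside plasma-like cells (rows), on log axes, for the chase library (upper point, orange) and the pulse library (lower point, blue), with bars for the exact Poisson interval and an arrow for a count of 0. Igha shifts between the libraries by a like amount in nearly every row, whereas Ighm spreads more widely between rows than between the libraries.

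The order of Ighm levels over classes was B-like, plasmacytoid dendritic-like, monocyte-like, macrophage-like and T-like in the chase library, and B-like, plasmacytoid dendritic-like, T-like, monocyte-like and macrophage-like in the pulse library, over B-like cells, plasmacytoid dendritic-like cells and the 9 classes. NK-like cells, only 11 in the chase and 19 in the pulse library, stood at 277 and 210 CPM from 19 and 22 UMIs. Macrophage-like and T-like cells in the chase library, and T-like and monocyte-like cells in the pulse library, had overlapping counting intervals. For Igha over the 9 classes, macrophage-like and T-like cells headed the chase library at 104 and 88.2 CPM, with overlapping intervals, and osteoblast-like cells came last in both libraries.

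Genes whose pattern over classes was most like a member's were sought over 20 points, the sums of 10 classes in each library, as Pearson correlations of log2(CPM + 5). For Igha these were Gm42418 (0.90), Gm15564 (0.85), Lars2 (0.78), BC018473 (0.77) and Gm19684 (0.68). Gm42418, a gene model that overlaps ribosomal RNA, stood at 49508 CPM in the chase and 18435 CPM in the pulse library in CAR-like cells, and at 35688 and 12756 CPM in B-like cells. Its part in the chase values was not tested. For Ighm the closest were Ifi214 (0.92), Gm43305 (0.92), Arl5c (0.92), Dgkd (0.92) and Gm20707 (0.92). The points share libraries and depth, and these values are a description.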

How the data were processed

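The authors deposited raw UMI counts per gene and barcode for 2 libraries made with the 10x Genomics 3′ kit per the labels' protocols, and the count values are whole numbers that were not normalised. The file headers name Cell Ranger 6.0.2. Version 2.1.1 is named per the submitters' processing notes, and the mismatch was not settled. The build is mm10 per the submitters' processing notes. All barcodes had at least 500 UMIs, so free RNA could not be read from empty droplets. The genes and lists were chosen with earlier results of these data known. The markers left out immunoglobulin genes and Jchain, and the gate thresholds were set after the data were seen.

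Filters asked for 500 genes, 1000 UMIs and less than 10% of UMIs from mitochondrial genes. This left 8445 chase and 9390 pulse barcodes. Scrublet (scanpy 1.11.5, seed 1) removed 110 chase cells (1.30%) and 178 pulse cells (1.90%), and doublets may remain. A cell was gated to the class with the highest share of its markers detected, by a lead of at least 15 percentage points, with at least 6 plasma, 4 B or 3 other markers. Of the markers 1 was not found by name. UMIs were summed per class and library. Poisson, Clopper-Pearson and conditional ratio intervals (scipy 1.17.1) cover counting error only. Log2 ratios carry a prior count of 0.5, and genes with at least 50 UMIs over both sums were compared. A count of 0 was set against 3 counts. The steps were tested on simulated data. Sequences came from GENCODE vM21 transcripts and their annotation. All 10 genes are named. List examples were up to 3 members with the highest plasma-like CPM or the largest chase over pulse change. Xbp1, Fcgrt and the gate markers named one by one were added after their values were seen. Thinning was 1 random draw with a fixed seed. Most alike genes left out 393 immunoglobulin rows.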

Additional observations from a re-analysis of the deposited data

Results flagged for a closer look

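Some members moved in opposite directions between the libraries in different classes, a difference that was not tested. Ighg2b was 2.40 times its pulse level in chase CAR-like cells and 2.51 times in macrophage-like cells, but 0.465 times in plasma-like cells, which turned to 1.95 times without 1 pulse cell. Ighg2c was 2.84 times in CAR-like and 2.13 times in macrophage-like cells, but 0.375 times in plasma-like cells (0.847 without 1 pulse cell). Igkc was 4.90 times in CAR-like and 5.13 times in macrophage-like cells, but 0.484 times in B-like cells, which turned to 1.10 times as UMIs per cell. In mature B-like cells alone the Igkc CPM of the libraries, given above, lay close together. Iglc1 was 3.55 times in plasma-like (1.87 without 1 chase cell) and 3.45 times in macrophage-like cells, but 0.0872 times in B-like cells. Iglc2 was 4.49 times in plasma-like cells, which turned to 0.780 times without 1 chase cell, and 0.117 times in B-like and 0.382 times in CAR-like cells.

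Counts also stood out in barcodes and a gene row outside the class comparisons of the 10 genes. Barcodes removed by the filters or as doublets had Igkc at 1044 CPM in the chase and 390 CPM in the pulse library, and Igha at 369 and 20.7 CPM, above CAR-like cells. Iglc3, a related lambda row outside the 10 genes, stood at 312 CPM in plasmacytoid dendritic-like cells of the chase and 447 CPM in those of the pulse library, against 0.336 and 1.13 CPM in CAR-like cells.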

How the results depend on the processing

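No paired analysis was possible because each group is 1 library. Over 61 results, 311 values were recomputed; 232 stayed within their counting interval, 74 moved further and 5 turned direction. The B-like chase over pulse ratios of Igkc, 1.10, and Ighm, 1.14, turned as UMIs per cell. Plasma-like ratios turned without the 1 cell highest in the gene, an alternative chosen after the data were seen: Ighm to 1.06 and Ighg2b to 1.95 without a pulse cell, and Iglc2 to 0.780 without a chase cell. As UMIs per cell, CAR-like Igha was 0.443 UMIs in the chase and 0.0648 in the pulse library (ratio 6.83), the CAR-like Igkc ratio was 4.02 and the B-like Iglc1 ratio 0.199. With doublets kept the CAR-like ratios of Igkc and Ighm were 4.01 and 0.388, and the thinned pulse CAR-like Igha share was 1.96%. With 1 more marker, plasma-like cells held 82.8% of chase Igha UMIs, and Igha was 86.1% of their switched chains. CAR-like Igha shares in the chase and pulse libraries were 33.7% and 6.28% unthinned, 22.4% and 3.44% thinned to 4000 UMIs, and 1.03% and 0.0258% when at least 2 UMIs were asked for. After the data were seen, ungated cells with at least 1000 light chain UMIs were added to plasma-like cells. These then held 94.6% of chase and 95.1% of pulse Igha UMIs, with Igha at 85.8% and 66.3% of switched chains. The CAR-like Igha ratio ranged from 6.83 to 8.43 over all settings. Libraries cannot be told apart from mice, age, sort or handling, and 14 pulse plasma-like cells limit every value on them.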

Other observations

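Receptors for antibody were read in the same classes. In chase over pulse CAR-like cells 2 of 7 measured antibody receptor genes were at least 2-fold higher (2.49% of all genes were) and 0 lower, Fcgr2b at 4.63 CPM in the chase and 2.20 CPM in the pulse library and Fcgr4 at 2.17 and 1.04 CPM, both receptors of IgG on blood cells. Fcgrt, which protects IgG from breakdown, stood at 359 and 313 CPM in CAR-like cells. In macrophage-like cells 2 of 7 receptor genes were higher (1.37% of all genes) and 0 lower. In plasma-like against B-like cells the 1 measured receptor gene of the chase library and both of the pulse library were lower, where 73.1% and 67.6% of all genes were. Of class switching genes, 2 of 2 were lower in plasma-like than in B-like cells of each library, against the same shares of all genes, and in chase over pulse B-like cells 0 of 4 passed 2-fold.

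CAR-like cells also carried Sdc1, the plasma cell surface marker syndecan 1, at 237 CPM in the chase and 294 CPM in the pulse library. By CPM of class totals this was above the 156 and 109 CPM of plasma-like cells. Those totals include the members, at a median of 66.8% of a chase and 52.7% of a pulse plasma-like cell's UMIs, which lowers plasma-like Sdc1 CPM. The order of the classes on totals without antibody transcripts was not computed. The plasma marker Tnfrsf17, the receptor BCMA, had 0 CPM in chase CAR-like and 0.0289 CPM in pulse CAR-like cells, against 199 and 257 CPM in plasma-like cells.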
